A study of Mus musculus with 8 samples.

Results

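The 9 genes described here, Krt7, Krt8, Krt18, Krt19, Spp1, Epcam, Sox9, Cftr and Muc1, are keratins and other genes named as markers of duct epithelium, taken by symbol from a table of 46959 entries. The table gives RPKM, reads scaled by gene length and by the size of the library, in 8 libraries of cells sorted from islets of adult mice. The series text describes the 3 cell groups as sorted from triple transgenic animals, apart from a passage given below. Triple transgenic animals carried an Ins1-H2b-mCherry reporter (a red nuclear protein under the insulin promoter) and Gcg-cre (a recombinase expressed from the glucagon gene). They also carried a floxed YFP allele that labels the descent of alpha cells. Beta cells (3 libraries) were sorted for the red reporter and alpha cells (3 libraries) for YFP. Transdifferentiated cells (2 libraries) were beta cells with the alpha lineage label, that is, cells positive for both.

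Islets of 10 to 12 animals of 1 sex were pooled for each library and cultured overnight in 5.5 mM glucose before dissociation and sorting. The series text also mentions pools of bitransgenic females without saying which libraries they gave. There were 4 male and 4 female libraries, both sexes in each cell group. Beta replicates 1 and 2 share a title number, as do alpha replicates 1 and 2, with a letter b added to the replicate 2 titles. Beta and alpha replicate 3 also carry the letter, and neither transdifferentiated library does. The sources used here do not say what the letter means, so the p-values may measure spread that is partly technical. A pool is many animals in 1 sample, and the data are bulk RNA, so fewer cells that hold a transcript and less of it per cell cannot be told apart.

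Keratins are the intermediate filament proteins of epithelia, and each filament is built from a type I and a type II chain in equal amounts. Krt8 (type II) and Krt18 (type I) are the pair of simple epithelia, including islet and acinar cells of the pancreas, and Krt7 (type II) and Krt19 (type I) are the chains added in duct epithelium. Sox9 is a transcription factor of ducts and of pancreatic progenitors, Cftr the chloride channel through which duct cells drive bicarbonate secretion, Spp1 (osteopontin) a secreted phosphoprotein, Epcam an adhesion molecule of epithelial membranes, and Muc1 a membrane mucin of apical surfaces. Duct cells and endocrine cells arise from common progenitors in the embryo.

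Krt8 and Krt18 lie next to each other on chromosome 15 (GENCODE M21, build GRCm38). Krt8 spans 101996698 to 102004482 on the minus strand and Krt18 spans 102028180 to 102032027 on the plus strand, so the 2 genes point away from each other with starts 23.7 kb apart. Krt7 is on the same chromosome at 101411043 to 101430313, 566 kb away. The RefSeq promoter windows run from 250 bases before to 50 after the start on build GRCm38.p6. Those of these 3 genes are shown because the genes had a common order of levels over the cell groups. The first of 2 RefSeq windows of Spp1 is shown because Spp1 was highest in alpha cells, where these 3 genes were lowest. The second Spp1 window, chr5:104435942-104436241, is not printed; it was 36.7% G or C and held none of the motifs searched. Capitals mark matches on either strand to 5 motifs. The letters TATAAA stood for the basal promoter element that binds the TATA-binding protein and GGGCGG for the element bound by Sp factors. The letters CCAAT stood for the element bound by NF-Y. The AP-1 site was searched as TGANTCA and the site of forkhead factors as TGTTTAC. No match of one motif overlapped a match of another in these windows.
Krt7, chr15:101412153-101412452, plus strand: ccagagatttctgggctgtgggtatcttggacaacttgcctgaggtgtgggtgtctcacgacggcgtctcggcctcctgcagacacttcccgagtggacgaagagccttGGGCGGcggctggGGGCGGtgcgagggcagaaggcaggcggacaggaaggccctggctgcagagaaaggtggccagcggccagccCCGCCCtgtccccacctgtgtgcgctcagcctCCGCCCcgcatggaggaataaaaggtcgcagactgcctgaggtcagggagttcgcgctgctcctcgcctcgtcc
Krt8, chr15:102004293-102004592, minus strand: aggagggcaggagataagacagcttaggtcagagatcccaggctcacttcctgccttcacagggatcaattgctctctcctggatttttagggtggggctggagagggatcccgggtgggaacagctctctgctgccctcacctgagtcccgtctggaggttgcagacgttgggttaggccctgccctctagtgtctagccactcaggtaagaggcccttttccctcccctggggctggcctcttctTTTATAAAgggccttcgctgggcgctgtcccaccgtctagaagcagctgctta
Krt18, chr15:102027966-102028265, plus strand: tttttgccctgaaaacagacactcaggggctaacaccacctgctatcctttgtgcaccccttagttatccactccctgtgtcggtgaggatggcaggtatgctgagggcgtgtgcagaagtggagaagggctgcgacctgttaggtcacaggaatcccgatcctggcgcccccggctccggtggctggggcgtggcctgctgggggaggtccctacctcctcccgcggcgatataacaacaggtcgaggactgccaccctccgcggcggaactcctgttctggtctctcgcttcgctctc
Spp1, chr5:104434861-104435160, plus strand: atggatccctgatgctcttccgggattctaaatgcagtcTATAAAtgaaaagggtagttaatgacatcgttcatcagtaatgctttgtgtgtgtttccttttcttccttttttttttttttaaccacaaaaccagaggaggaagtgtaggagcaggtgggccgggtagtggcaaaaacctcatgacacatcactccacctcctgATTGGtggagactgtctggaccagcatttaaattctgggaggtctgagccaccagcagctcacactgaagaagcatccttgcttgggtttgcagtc

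The Krt7 window was 66.3% G or C and held 4 GC boxes, beginning 141, 128, 56 and 24 bases before the start. GC boxes were in 35.7% of the 32851 RefSeq promoter windows, whose median G or C content was 52.7%. In the Krt8 window 2 overlapping TATAAA matches, 1 on each strand, formed a single run at the start itself. No motif was found in the Krt18 window, which says only that these letters are not in it. The Spp1 window was A and T rich (45.3% G or C), with a TATA match 211 bases and a CCAAT match 46 bases before the start. TATA letters were in 13.6% and CCAAT letters in 37.4% of all windows. The AP-1 and forkhead letters, in 7.81% and 3.65% of all windows, were in none of these 4.

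Depth limited the transdifferentiated cells. Reads recovered from the steps of the RPKM values numbered 1244156 and 2167199 in the 2 transdifferentiated libraries, against 12911324 to 21394674 in the others. A lone read on a gene of 2 kb thus came to 0.402 RPKM in transdifferentiated replicate 1 and 0.231 in replicate 2, and to between 0.0234 and 0.0387 elsewhere. The hormone genes followed the sort labels. The summed level of 5 beta markers (Ins1, Ins2, Ucn3, Mafa and Slc2a2) was 148085 to 201435 RPKM in beta, 108248 to 117488 in transdifferentiated and 1036 to 1365 in alpha libraries. Gcg, the glucagon gene, was at 478 to 1773 RPKM in beta, 19104 to 19374 in transdifferentiated and 170137 to 196491 in alpha libraries.

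As a group these genes split in 3. Krt7, Krt8, Krt18, Epcam and Spp1 were abundant in all 3 cell groups, Krt19 and Muc1 were low, and Sox9 and Cftr were at the limit of detection. Krt7, Krt8 and Krt18 were lower in alpha cells than in beta cells, and Spp1 and Muc1 were higher. Transdifferentiated cells differed from alpha cells in Krt7, Krt18 and Spp1, each on the side of beta cells. The comparisons used limma on log2(RPKM + 0.5) over the 13172 genes with at least 1 RPKM in at least 2 libraries, with sex as a term and Benjamini-Hochberg adjustment over all genes, and 7 of the 9 genes passed that filter.

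Between alpha and beta cells 5 of the 7 genes tested were called at an adjusted p under 0.05 (2 higher and 3 lower in alpha cells), where 43.6% of all genes tested were called. Between transdifferentiated and alpha cells 3 of 7 were called (2 higher, 1 lower), where 29.9% of all genes were. Between transdifferentiated and beta cells limma called 0 of 7, where 12.0% of all genes were called. In that comparison 0 of 7 were under an unadjusted p of 0.05, and limma voom on the recovered reads also called 0. The 2 comparisons with transdifferentiated cells share those libraries, and each shares its reference with the comparison of alpha and beta cells. The members' median log2 differences were -0.75, 0.50 and -0.12 in these comparisons, against -0.05, 0.17 and 0.09 over all genes.

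**Figure D1:**
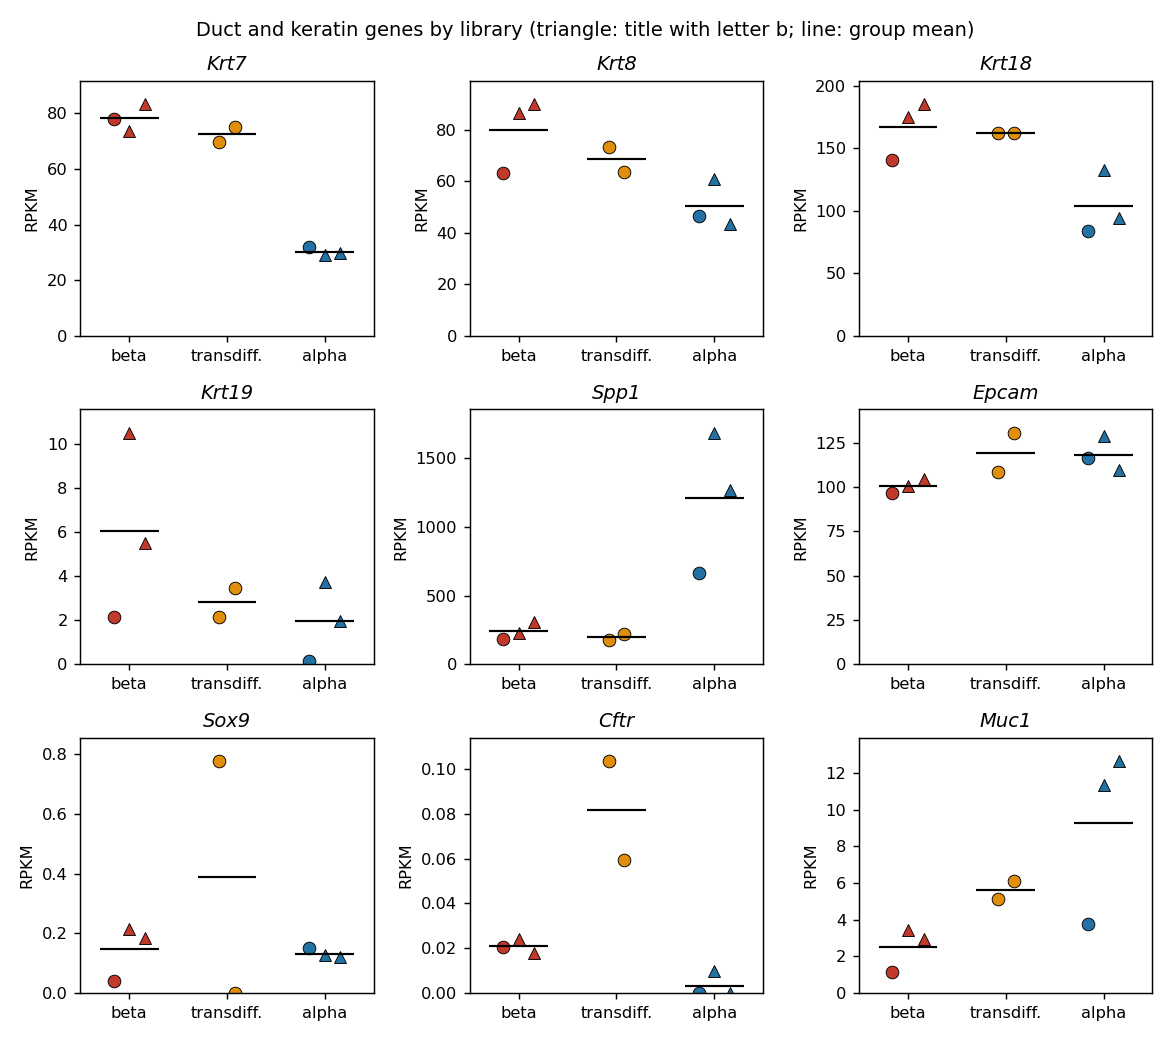
RPKM of each of the 9 genes (vertical axes, each from 0) in the beta, transdifferentiated and alpha libraries. Points are libraries, triangles are libraries whose title carries the letter b, and lines are group means. Krt7 stood at 69.6 to 83.3 RPKM in beta and transdifferentiated libraries and at 29.1 to 32.1 in alpha libraries. Spp1 was higher in the alpha libraries than in all others.

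Krt7 separated alpha cells from both other groups. Its level was 77.9, 73.8 and 83.3 RPKM in beta replicates 1 to 3, 69.6 and 75.2 RPKM in transdifferentiated replicates 1 and 2, and 32.1, 29.1 and 29.7 RPKM in alpha replicates 1 to 3. The alpha libraries lay below all others without overlap, while the transdifferentiated values fell partly inside the beta range. Group means were 78.3 ± 4.75 RPKM (SD, n = 3) in beta, 72.4 ± 3.96 (SD, n = 2) in transdifferentiated and 30.3 ± 1.58 (SD, n = 3) in alpha cells. Alpha cells held 38.7% of the beta mean and transdifferentiated cells 92.4%. The log2 difference of alpha from beta cells was -1.36 (SE 0.09, limma adjusted p = 3.98e-05), and that of transdifferentiated from alpha cells was 1.25 (SE 0.09, limma adjusted p = 0.000212). Each was called in all 20 alternative analyses. Transdifferentiated and beta cells differed by -0.12 (95% interval -0.34 to 0.10, limma adjusted p = 0.427). That interval allows transdifferentiated cells a level somewhat below or slightly above that of beta cells. The transdifferentiated values rested on 611 and 1150 reads.

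Krt8, the type II chain that pairs with Krt18, was at 63.3, 86.3 and 89.9 RPKM in the beta libraries, 73.5 and 63.6 RPKM in the transdifferentiated and 46.6, 60.7 and 43.5 RPKM in the alpha libraries. The alpha libraries were lowest, though alpha replicate 2 came close to beta replicate 1 and transdifferentiated replicate 2. Alpha cells were below beta cells by a log2 difference of -0.75 (SE 0.15, limma adjusted p = 0.00653), and quantile normalization ended the call (-0.35, limma adjusted p = 0.1). The difference of transdifferentiated from alpha cells, 0.50 (95% interval 0.12 to 0.87), did not pass after adjustment (limma adjusted p = 0.054). It was called in 6 of 20 alternatives, over which the adjusted p ran from 0.0127 to 0.361, among them those without beta replicate 1 (0.0437), beta replicate 2 (0.0439) or alpha replicate 2 (0.0441). That from beta cells was -0.25 (95% interval -0.63 to 0.13, limma adjusted p = 0.326).

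Krt18, the type I partner, was the most abundant of the keratins. It was at 141, 175 and 185 RPKM in the beta libraries, 162 and 162 RPKM in the transdifferentiated and 83.9, 132 and 94.2 RPKM in the alpha libraries. Every alpha library lay below every beta and transdifferentiated library, and alpha replicate 2 stood nearest to them. The log2 difference of alpha from beta cells was -0.75 (SE 0.18, limma adjusted p = 0.0147), and it was not called under quantile normalization (adjusted p = 0.103), without beta replicate 3 (0.0952) or without alpha replicate 3 (0.0841). Transdifferentiated cells were above alpha cells by 0.70 (SE 0.20, limma adjusted p = 0.0356), a call kept in 10 of 20 alternative analyses, over which the adjusted p ran from 0.00904 to 0.137. Against beta cells the difference was -0.06 (95% interval -0.52 to 0.41, limma adjusted p = 0.871). On the linear scale from the alpha mean at 0 to the beta mean at 100, transdifferentiated cells stood at 87.6 for Krt7, 61.8 for Krt8 and 92.5 for Krt18.

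**Figure D2:**
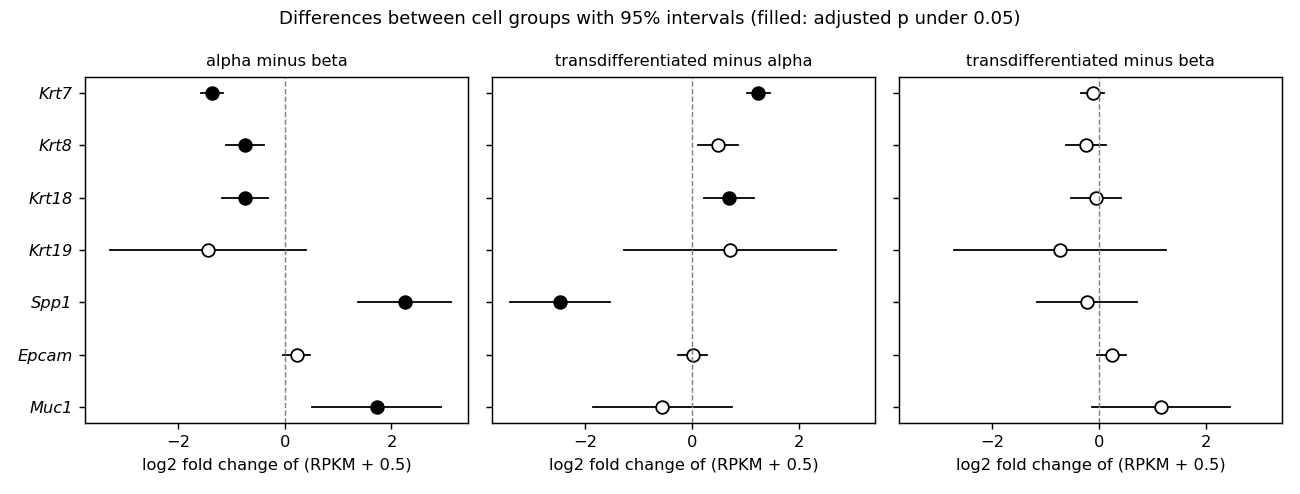
Log2 differences of RPKM + 0.5 between cell groups for the 7 genes tested (horizontal axis), with 95% intervals from limma. Filled points have an adjusted p under 0.05, which no gene reached between transdifferentiated and beta cells, where the intervals of Krt19, Spp1 and Muc1 are wide.

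The balance of type II and type I chains was compared per length, since chains pair in filaments. Summed Krt7 and Krt8 came to 0.864 to 0.988 of summed Krt18 and Krt19 in beta libraries, 0.837 to 0.872 in transdifferentiated and 0.66 to 0.937 in alpha libraries, so the ranges overlapped. The sum of the 4 keratins was 284 to 364 RPKM in beta, 305 to 307 in transdifferentiated and 163 to 226 in alpha libraries. Krt8 alone was less than its partner in every library, at 0.392 to 0.556 of Krt18. Krt7 was close to Krt8 in beta cells (0.855 to 1.23 of it) and below it in alpha cells (0.48 to 0.689). These ratios depend on the length used for Krt7. The steps of the deposited values give 7055 bases for Krt7, while its longest coding transcript has 4094. With transcript lengths for all 4 keratins Krt7 came to 127 to 143 RPKM in beta, 120 to 130 in transdifferentiated and 50.2 to 55.4 in alpha libraries, and the mean type II to type I ratio became 1.24, 1.17 and 0.989. Krt7 then came to 1.6 to 2.3 times Krt8 in beta libraries and to 1.29, 0.897 and 1.28 times in alpha replicates 1 to 3. Differences of 1 gene between groups are not touched by its length. The library kit does not mark strand, so reads of a gene overlapping on the opposite strand cannot be told apart.

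**Figure D3:**
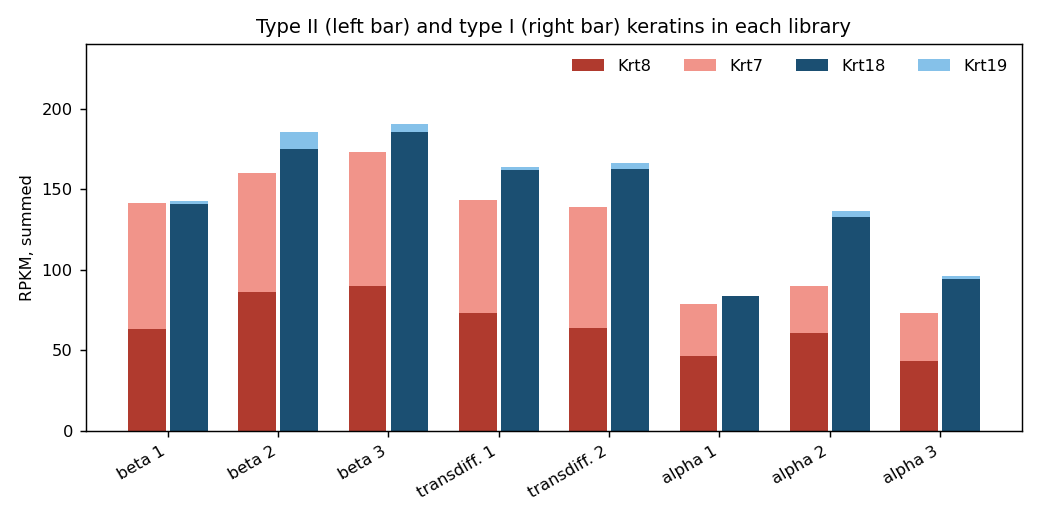
Summed RPKM (vertical axis, from 0) of the type II keratins Krt8 and Krt7 (left bar) and the type I keratins Krt18 and Krt19 (right bar) in each library. Both bars are shorter in the alpha libraries, and the left bar is 0.66 to 0.988 of the right one over the 8 libraries.

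Krt19, the type I keratin most used to mark ducts, was low and uneven. Its level was 2.17, 10.5 and 5.49 RPKM in the beta libraries (75, 417 and 146 reads), 2.17 and 3.48 RPKM in the transdifferentiated (5 and 14 reads) and 0.167, 3.73 and 1.99 RPKM in the alpha libraries (4, 93 and 52 reads). All groups overlapped, and the spread within a group was as large as the distance between groups. No comparison was called: the log2 difference was -1.44 for alpha from beta cells (SE 0.78, limma adjusted p = 0.172), 0.71 for transdifferentiated from alpha cells (SE 0.84, adjusted p = 0.569) and -0.73 for transdifferentiated from beta cells (SE 0.84, adjusted p = 0.591). Krt19 made up 0.199 to 5.67% of the summed type I RPKM. With the title letter as a further term the alpha to beta difference was called (-1.44, limma adjusted p = 0.0147), as was that of transdifferentiated from alpha cells (2.01, adjusted p = 0.0206). Neither transdifferentiated library carries the letter, so its effect was estimated from the beta and alpha libraries, with 1 lacking it in each group. In alpha cells that library, replicate 1, had 4 Krt19 reads. Calls of genes under 10 RPKM against transdifferentiated cells are also less secure.

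Markers of acinar cells, the enzyme-making cells of the exocrine pancreas, moved with Krt19 within the reference groups. The summed level of 12 acinar markers was 144, 3707 and 1736 RPKM in beta replicates 1 to 3, and 52.2, 2715 and 667 RPKM in alpha replicates 1 to 3. In each group the library order of Krt19 was the same as the order of this sum. The transdifferentiated libraries, at 989 and 351 RPKM of acinar markers, had the opposite order of Krt19, on 5 and 14 reads. Of the 12 markers 10 reached 1 RPKM in every library. The others were Amy2a5, at most 0.0187 RPKM, and Ptf1a, the defining acinar transcription factor, at most 0.186 RPKM. Ptf1a was at 0, 0.186 and 0.0925 RPKM in beta replicates 1 to 3, the order of the sum. Bhlha15, among the 10, was at 16.7, 13.9 and 13.4 RPKM there and did not follow it. Sox9 had the same order in the beta libraries (3, 19 and 11 reads) and not in the alpha libraries (8, 7 and 7 reads). The part of exocrine cells in the Krt19 values was not tested.

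**Figure D4:**
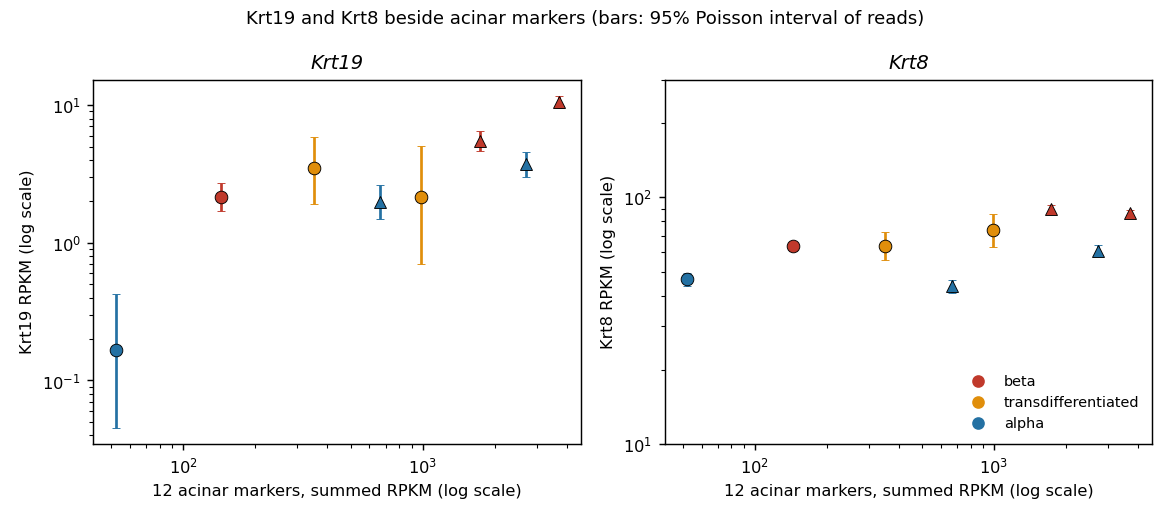
RPKM of Krt19 (left) and Krt8 (right) against the summed RPKM of 12 acinar markers, both axes logarithmic. Points are libraries, triangles carry the letter b in the title, and bars are exact 95% Poisson intervals of the recovered reads. Krt19 is higher in the beta and alpha libraries with more acinar signal, and the 2 transdifferentiated libraries overlap within their counting intervals.

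Spp1 was highest in alpha cells, where Krt7, Krt8 and Krt18 were lowest, and had the highest level of the 9 genes. It was at 182, 232 and 308 RPKM in the beta libraries, 180 and 225 RPKM in the transdifferentiated and 667, 1686 and 1271 RPKM in the alpha libraries. Every alpha library lay above all others, and the transdifferentiated and beta libraries overlapped. By mean level Spp1 ranked 20 among all genes in alpha cells, 79 in beta cells and 98 in transdifferentiated cells. Alpha cells had 5.02 times the beta mean, a log2 difference of 2.25 (SE 0.37, limma adjusted p = 0.00287), and transdifferentiated cells had 16.7% of the alpha mean, a log2 difference of -2.48 (SE 0.40, limma adjusted p = 0.0043). Each call was kept in all 20 alternative analyses. Transdifferentiated and beta cells differed by -0.23 (limma adjusted p = 0.727), with a wide 95% interval of -1.17 to 0.71. Macrophages also make osteopontin. The summed level of 10 immune markers was 14.6 to 20.6 RPKM in alpha, 91.3 to 109 RPKM in beta and 37.9 and 22.7 RPKM in the transdifferentiated libraries. C1qa alone was at 18, 13.7 and 11 RPKM in the alpha and 16.2 and 17.3 RPKM in the transdifferentiated libraries, where C1qb was at most 0.137 RPKM. Of the 10 immune markers 7 reached 1 RPKM in each beta library and 2 in each alpha library. Ptprc, which marks all leukocytes, was at most 0.133 RPKM in any library. The part of immune cells in the Spp1 values was not tested.

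Epcam had group means within 101 to 120 RPKM and no called difference. It was at 96.8, 101 and 105 RPKM in the beta libraries, 108 and 131 RPKM in the transdifferentiated and 116, 129 and 110 RPKM in the alpha libraries. The beta libraries were the lowest, and the other groups overlapped. The log2 difference of alpha from beta cells was 0.22 (SE 0.11, limma adjusted p = 0.135), and quantile normalization (adjusted p = 0.0041) and limma voom (adjusted p = 0.0439) called it. That of transdifferentiated from alpha cells was 0.01 (95% interval -0.26 to 0.29, limma adjusted p = 0.941), and that from beta cells was 0.24 (95% interval -0.04 to 0.51, adjusted p = 0.213).

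Muc1 was low, at 1.12, 3.43 and 2.91 RPKM in the beta libraries, 5.14 and 6.10 RPKM in the transdifferentiated and 3.76, 11.3 and 12.6 RPKM in the alpha libraries. No beta library reached the alpha or transdifferentiated range, though alpha replicate 1 lay close to beta replicate 2. Alpha cells were above beta cells by a log2 difference of 1.72 (SE 0.51, limma adjusted p = 0.0312). The call was lost in 6 of 19 alternatives. It was lost without beta replicate 1 (log2 difference 1.33, limma adjusted p = 0.0598), beta replicate 3 (2.19, 0.0519), alpha replicate 2 (1.49, 0.0848) or alpha replicate 3 (1.25, 0.21). It was also lost with 1 library per title number (1.67, 0.106) and with no filter on low values (1.72, 0.0783). The difference of transdifferentiated from beta cells was 1.17 (95% interval -0.14 to 2.47, limma adjusted p = 0.197), on 15 and 31 reads in the transdifferentiated libraries. That from alpha cells was -0.55 (95% interval -1.85 to 0.75, adjusted p = 0.497). With the title letter as a term the difference from beta cells was called (2.07, limma adjusted p = 0.00449), and that from alpha cells turned to 0.35 (adjusted p = 0.104). The letter's effect again came from the beta and alpha libraries only, with 1 lacking it in each group. Muc1 averaged under 10 RPKM, where calls against transdifferentiated cells are less secure.

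Sox9 and Cftr were below the filter and were not tested. Sox9 had 3, 19 and 11 reads in the beta libraries, 4 and 0 in the transdifferentiated and 8, 7 and 7 in the alpha libraries, which is at most 0.777 RPKM. The 0 of transdifferentiated replicate 2 allows a level of up to 0.335 RPKM (3 reads). Cftr had 3, 4 and 2 reads in the beta libraries, 1 and 1 in the transdifferentiated, and 0, 1 and 0 in the alpha libraries, where 0 allows up to 0.0299 RPKM in alpha replicate 1 and 0.0274 RPKM in alpha replicate 3. These limits cover counting error only. These 2 duct genes were thus near 0, while Krt7, also a duct marker, was abundant in all groups.

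The libraries with the letter b differed from those without it in several of these genes. In the beta and alpha pairs that share a title number, the library with the letter had 4.85 and 22.4 times the Krt19 RPKM of the other, 3.06 and 3.01 times the Muc1, 1.27 and 2.53 times the Spp1 and 1.24 and 1.58 times the Krt18. Krt7 had 0.947 and 0.907 times. The acinar marker sums given above were also higher with the letter in both groups, at 3707 and 1736 against 144 RPKM in beta and 2715 and 667 against 52.2 RPKM in alpha libraries, and their part in these differences was not tested. Of the 7 genes tested 6 were higher with the letter in both pairs, as were 43.6% of all genes. As a model term the letter gave 5 of 7 genes higher at an unadjusted p under 0.05 (8.02% of all genes) and, by limma, no gene of 13172 at an adjusted p under 0.05, with 1275 under an unadjusted 0.05. Both transdifferentiated libraries lack the letter, so they were also set beside the reference libraries without it. There Krt7 was 77.9 RPKM in beta replicate 1 and 32.1 in alpha replicate 1, and Spp1 was 182 and 667, so the transdifferentiated cells were again near the beta library. Muc1 was 1.12 in beta replicate 1 and 3.76 in alpha replicate 1, both below the transdifferentiated 5.14 and 6.10. With 1 reference library on each side, this comparison has no test.

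Sex was compared in the same fit. The sample titles do not say whether libraries of 1 sex came from 1 pool, in which case sex and pool cannot be told apart. Limma called 0 of 7 between male and female libraries, where 0.0456% of all genes were called, and 0 of 7 had an unadjusted p under 0.05. Limma voom called 0 as well. The log2 difference of male from female libraries farthest from 0 was that of Krt19, at -0.31 (95% interval -1.90 to 1.28).

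Of 30 other genes of duct cells, 24 were tested. This list and the filament list below were chosen with earlier results of these data known. Their counts and medians beside those of all genes are therefore a description only. Transdifferentiated cells were above beta cells in 6 of them and below in 1 (median log2 difference 0.35, all genes 0.09), where 9.1% of all genes were called higher and 2.9% lower. Tspan8, a membrane tetraspanin, was at 85.3 ± 1.86 RPKM (SD, n = 2) in transdifferentiated cells against 18.2 ± 4.03 (SD, n = 3) in beta and 24.3 ± 1.67 (SD, n = 3) in alpha cells, and was called against both (log2 differences 2.22 and 1.80, limma adjusted p = 0.0025 and 0.000665). Ambp, a secreted protease inhibitor precursor, was also called higher against both, with means of 26, 10.6 and 15.1 RPKM in transdifferentiated, beta and alpha cells. Lgals4, a galectin, averaged 4.12 RPKM in transdifferentiated cells against 1.36 in beta and 0.976 in alpha cells, called against both. Id3, an inhibitor of basic helix-loop-helix factors, averaged 47 RPKM and Slc4a4, a bicarbonate cotransporter, 3.58 RPKM. Both were above beta cells (6.13 and 1.17 RPKM) and were not called against alpha cells (58.1 and 2.65 RPKM). Prom1, a membrane glycoprotein of apical protrusions, was the gene below beta cells (15.2 against 34.2 RPKM). Some markers of other cells were also present in the transdifferentiated libraries. Of 4 delta cell markers, Ghsr (3.08 and 2.19 RPKM) was above all other libraries (at most 1.48 RPKM). Hhex (7.12 and 4.09 RPKM) and Sst (2885 and 2749 RPKM) overlapped the alpha libraries, which reached 4.84 and 2845 RPKM. Rbp4 (200 and 212 RPKM) lay below the alpha libraries (305 to 368 RPKM). The summed level of 4 delta markers was 3096 and 2967 RPKM, against 312 to 891 in beta and 1371 to 3197 in alpha libraries. Ppy, the marker of PP cells, was at 6155 and 4419 RPKM, against 344 to 822 in beta and 4126 to 6215 in alpha libraries. The sum of 7 endothelial markers was 10.6 and 3.87 RPKM, against 0.315 to 3.56 in the others. A lone read at 2 kb was 0.402 and 0.231 RPKM in the transdifferentiated libraries, so these low sums carry a large counting error. The part of these other cells in the duct gene values was not tested.

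Against alpha cells 7 of these 24 genes were higher in transdifferentiated cells and 2 lower (median 0.31, all genes 0.17), beside 29.9% of all genes called. Besides Tspan8, Ambp and Lgals4, the higher ones were Prom1, Klf5, Cd24a and Cldn7, a tight junction claudin. The lower ones were the transcription factors Ehf and Onecut2. Alpha cells were above beta cells in 5 of 24 and below in 4 (median 0.17, all genes -0.05), beside 43.6% of all genes called, with Id3 the farthest from 0 (log2 difference 3.09, limma adjusted p = 6.91e-05). The calls ran in both directions in each comparison. The number called between transdifferentiated and beta cells, 7, was 0 with only those 2 groups in the fit and 2 without beta replicate 3, where calls over all genes went from 1580 to 0 and 235.

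Among 18 genes, mostly of filament linkers, junction plaques and other intermediate filaments, 15 were tested. The list also holds Krtcap2 and Krtcap3, which have keratinocyte names but are not of these kinds, and both were tested. Dsp, desmoplakin, which anchors keratins at desmosomes, had the order of the keratins, at 28.9 ± 3.65 RPKM (SD, n = 3) in beta, 19.7 ± 0.597 (SD, n = 2) in transdifferentiated and 5.8 ± 1.02 (SD, n = 3) in alpha cells. Its log2 difference was -2.21 for alpha from beta cells and 1.68 for transdifferentiated from alpha cells (limma adjusted p = 5.42e-05 and 0.000525). The linkers Evpl, Ppl, Plec and Dst and the plaque gene Jup had the opposite order, with alpha cells above beta cells. In all, alpha cells were above beta cells in 6 of 15 and below in 5 (median -0.07), where 43.6% of all genes were called. Krtcap2 was among the 5. Transdifferentiated cells were above beta cells in 1, Evpl (3.77 against 1.73 RPKM), and differed from alpha cells in 3: Dsp and Vim higher, Krtcap3 lower (medians 0.11 and -0.00). Over all genes 12.0% and 29.9% were called in these comparisons. Between transdifferentiated and alpha cells the number called was 8 under median-ratio scaling and 1 with only those 2 groups in the fit.

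The table lists 51 keratin genes, of which 41 stayed under 1 RPKM in every library, 19 of them at 0 in all, and 9 were tested. Besides the 4 keratins above, Krt80, a type II epithelial keratin, averaged 5.26 RPKM in transdifferentiated and 3.17 in beta cells against 0.179 in alpha cells, with log2 differences of -2.33 for alpha from beta cells and 3.03 for transdifferentiated from alpha cells (limma adjusted p = 0.000101 and 0.00011). Krt222 had the same order with smaller distances, at 5.15, 4.58 and 3 RPKM in beta, transdifferentiated and alpha cells. Krt1 was above its beta level in alpha cells (2.85 against 0.832 RPKM). In all, alpha cells were below beta cells in 5 of 9 and above in 1, transdifferentiated cells were above alpha cells in 4, and limma called 0 of 9 between transdifferentiated and beta cells (limma voom 0, and 1 at an unadjusted p under 0.05), the members included in each count. The shares of all genes called were 43.6%, 29.9% and 12.0% in these comparisons.

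Pearson's r over the 8 libraries is given as a description, since libraries share cell groups and depth. For log2(RPKM + 0.5) it was 0.941 between Krt8 and Krt18 and 0.838 between Krt7 and Krt18, and 0.518 to 0.814 between Krt19 and the other keratins. With Spp1 it was -0.936 for Krt7, -0.632 for Krt8, -0.657 for Krt18 and -0.268 for Krt19. The tested genes most like Krt7 were Kcnip1 (r = 0.9985), Pctp (0.9977) and Ins2 (0.9969). For Krt8 they were Foxo6 (0.9538), Rgmb (0.9437) and Krt18 (0.9409), and for Krt18 Fhad1 (0.9848), Bhlhe40 (0.9670) and Rsad2 (0.9646). The nearest to Spp1 was Fam222b (0.9874), to Muc1 Wdr83 (0.9954), to Epcam Atg14 (0.9651) and to Krt19 Eif4a2 (0.9618).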

How the data were processed

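RNA of sorted cells was sequenced from TruSeq RNA kit v2 libraries, per the labels' protocols. The authors deposited RPKM per gene; the build was GRCm38.p4 and the tools STAR 2.5, featureCounts and edgeR 3.14.0, per the submitters' processing notes. The sources used here do not give the annotation or strand setting. Groups came from the sample labels and columns were matched to samples by name. Of 46959 entries, 23 had date-like names and were kept, and 4 with repeated names were left out.

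Whole reads were recovered from RPKM steps with GENCODE M21 exon lengths. Of 25353 expressed genes matched by symbol, 19911 (78.5%) were whole within 0.01 read in all libraries, and the lengths of 6874 further genes were solved from their own steps. Recovered reads gave intervals and an alternative test only. They numbered 1244156 and 2167199 in the transdifferentiated libraries and 12911324 to 21394674 in the others.

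The main test was limma 3.58.1 (lmFit, eBayes with trend, R 4.3.3) on log2(RPKM + 0.5), for genes with at least 1 RPKM in at least 2 of 8 libraries. Terms were cell group and sex, with a Benjamini-Hochberg adjusted p under 0.05 over 13172 genes. Fold changes on this scale understate those of low genes. On data simulated at these depths, the test called more unchanged genes than its threshold allows among genes under 10 RPKM in the comparisons with transdifferentiated cells, so those calls (Lgals4, Slc4a4, Evpl and Krt80 among them) are less secure. That step had first been given a limit on false calls over all genes, which it failed; its limit now covers only genes of at least 10 RPKM.

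All 9 members are named whatever they showed. Other genes were named when called (at most the 6 farthest from 0 per list and comparison) or at a mean of at least 5 RPKM, and the 3 genes most like each member could be named. Some genes of the lists are not reported here. The members and lists were chosen with earlier results of these data known. Alternatives varied the pseudocount, filter, scaling, terms, libraries and test. A minimum mean of 10 RPKM, 1 library per title number, transcript lengths for the keratin balance and the alternatives for the lists were chosen after seeing the data.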

Additional observations from a re-analysis of the deposited data

How the results depend on the processing

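Krt7 and Spp1 kept their calls in all 20 alternatives for alpha against beta cells and for transdifferentiated against alpha cells. Between transdifferentiated and beta cells the number of members called was 0 except with the title letter as a term, when it was 1 (Muc1), and against alpha cells that term gave 5. Without 1 library at a time the members called numbered 3 to 5 for alpha against beta, 2 to 4 for transdifferentiated against alpha, and 0 for transdifferentiated against beta and for sex. The type II to type I keratin ratio became 0.476, 0.423 and 0.492 (beta, transdifferentiated, alpha) from Krt8 and Krt18 alone, and 1.24, 1.17 and 0.989 with transcript lengths.

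For transdifferentiated against beta, duct genes called fell from 7 to 4 (no filter, quantile, voom, or 1 library per title number) and 0 (only these groups). Genes called in the filament list, Krtcap2 and Krtcap3 included, went from 1 to 3 (title letter, median-ratio), 2 (quantile, voom) or 0 (only these groups, 1 library per title number, a mean of 10 RPKM). Keratins went from 0 to 1 (pseudocount 1). For transdifferentiated against alpha, duct genes went from 9 to 5 (only these groups, a mean of 10 RPKM), filament genes from 3 to 5 (no sex term), 8 (median-ratio, quantile), 6 (voom) or 1 (only these groups, 1 library per title number), and keratins from 4 to 2 (voom, only these groups). For alpha against beta, a mean of 10 RPKM left 3 duct, 5 filament and 3 keratin genes of 9, 11 and 6, where fewer genes were tested, and 1 library per title number left 5 filament genes. Other causes were not tested. Without 1 library at a time, duct genes called numbered 2 to 7, 4 to 9 and 5 to 10 (transdifferentiated against beta, against alpha, alpha against beta), filament genes 0 to 1, 1 to 3 and 3 to 11, and keratins 0 to 1, 2 to 5 and 4 to 6.

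The median-ratio scaling moved the median difference of all genes between transdifferentiated and alpha cells from 0.17 to -0.05, and between transdifferentiated and beta cells from 0.09 to -0.06. The quasi-likelihood count test was not run, since the deposited values are RPKM. No paired analysis was possible because the replicate numbers follow accession order and no title number is shared by 2 cell groups. Depth limits Krt19, Muc1, Sox9 and Cftr in the transdifferentiated libraries.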
